A study of Mus musculus with 2 samples.

Results

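Genes of the axon guidance families were examined in mouse cells labelled as lymphoma, grown with endothelial cells or in serum-containing medium. The families are the ephrins and their Eph receptors, the semaphorins with their plexin and neuropilin receptors, the netrins with their Unc5 receptors, and the Slit ligands with their Robo receptors. The members were chosen by the start of the platform gene symbol, which gave 77 genes of the 18193 with a single-symbol probe set. Of these, 67 belong to the families named, and 10 share only the letters of a prefix. Each gene took the value of its probe set with the highest mean over both arrays.

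The first sample was cells under the label of lymphoma co-cultured with endothelial cells, which line blood vessels, and the second was the same label in serum-containing medium. Each was measured on 1 array. The labels give no genotype, strain, age, line or culture time, do not say whether the cell types were separated, and do not give the species of the endothelial cells. The medium of the co-culture is not named either, so a difference in medium and the presence of endothelial cells cannot be told apart.

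Values are linear intensities, and an intensity below 44.3, the pooled median of both arrays, was set to that floor. A gene whose probe set exceeded the floor on either array is called measured, and it counts as higher or lower from a 2-fold change on, which is a log2 difference (co-culture minus serum) of 1 or -1. Where 1 array is at the floor, the fold can only be bounded from below, and the text says at least. There is no test, with 1 array in each group, and the only error at hand is how far measured probe sets for 1 gene differ in log2 difference, with a pooled SD of 0.60 over 5478 genes. That SD covers hybridisation and probes, not the spread between cultures, and the number of arrays limits the precision. In bulk RNA, fewer cells of a type and less RNA per cell cannot be told apart.

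The labelled cell types were checked against their markers. Of 14 B lineage genes 5 were measured, with no intensity over 126 on the co-culture array and 161 on the serum array, and of 12 pan-leukocyte genes 3 were measured. Those were Coro1a (125 in co-culture, 75.5 in serum), Lcp1 (68.3 in co-culture, 52.3 in serum) and Cd53 (64.3 in co-culture, 139 in serum), while Ptprc, the CD45 antigen of white blood cells, had 3.14 in co-culture and 21.5 in serum. The samples are therefore called by their labels. Of 20 endothelial genes 5 were measured, and the intensities of all 20 summed to 1096 in co-culture and 1006 in serum. Egfl7 had 532 in co-culture and 473 in serum, Ramp2 had 90.9 and 99.3, and Eng had 58.5 and 36.5. Ptprb had 31.1 in co-culture and 80.5 in serum, and Flt1, counted as lower, had 26.4 and 93.3. Pecam1, Cdh5 and Kdr, which define endothelial cells, were below the floor on both arrays. Of these, Cdh5 (44.1 in co-culture, 19.6 in serum) lay just under it in co-culture, and Kdr had 38.4 in co-culture and 19.5 in serum. The lists of neural and early embryonic genes had 5 and 3 of 10 members measured. Ncam1, a neural adhesion molecule, was 2.26-fold lower in co-culture (992 in co-culture, 2240 in serum), and Lin28a, an RNA-binding protein of early embryonic cells, was 8.98-fold higher (534 in co-culture, 59.4 in serum). Of the 3 early embryonic genes measured, 2 were higher and 0 lower, while Pou5f1, Nanog, Zfp42 and Esrrb were below the floor on both arrays. The 3′ to 5′ intensity ratio of the beta-actin control, a sign of RNA length, was 2.05 in co-culture and 3.56 in serum. The ratio was 1.88 in co-culture and 2.54 in serum for the Gapdh control, and 5.03 and 13.2 for the transferrin receptor control. The part of RNA length in the differences below was not tested.

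Guidance molecules steer growing axons, migrating cells and sprouting vessels by attracting or repelling them. Ephrins are membrane-bound ligands that signal on cell contact to Eph receptor tyrosine kinases, and the ligand-bearing cell can receive a signal in return. Semaphorins bind plexins, whose intracellular part acts on small GTPases, and the secreted class 3 semaphorins generally need a neuropilin as co-receptor. Netrins act through DCC, neogenin and the Unc5 receptors, and Slits through Robo receptors. In the vessel wall, ephrin-B2 marks arteries and EphB4 marks veins, and Robo4, Unc5b and plexin-D1 are known from endothelial cells.

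Of the 77 members, 42 were measured, and among them 5 were higher and 5 lower in co-culture past 2-fold. Over all 11542 measured genes, 4.60% were higher and 10.1% lower past the same limit. The higher members were the ephrin Efna2, the receptor Epha2, the semaphorin Sema4d, the netrin receptor Unc5b and Nrp, a locus that shares only letters with the neuropilins. The lower members were the receptors Epha8 and Ephb4, the semaphorins Sema3d and Sema6a and the plexin Plxna2. Of the measured members, 22 lay above 0 and 20 below it on the log2 scale. Of all measured genes, 45.9% lay above and 54.1% below. Epha1, Epha7, Ephb1, Sema3b, Sema5b, Sema6c and Slit2 passed the floor through the co-culture array alone, which fixed their sign above 0. Epha10, Sema3d, Sema4f and Plxnb1 passed it through the serum array alone, which fixed theirs below 0. Signs fixed this way also enter the figures for all measured genes, so the comparison cannot show a tilt of the members. The median log2 difference of the measured members was 0.04, and -0.18 over the 39 measured guidance genes without the prefix-only ones, beside -0.06 over all measured genes. Scaling to the hybridisation spikes, which moved the median of all genes to -0.25, gave 4 higher and 9 lower members. Nearest to the limit, Sema4d lay just inside (1644 in co-culture and 821 in serum) and Efna5 just outside, at 1.89-fold lower. Of the 42 measured members, 16 had another measured probe set, and in 9 of those every other one had the same sign. Some of those signs too were fixed by the floor, as for the other probe sets of Efna1 and Efna2.

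**Figure D1:**
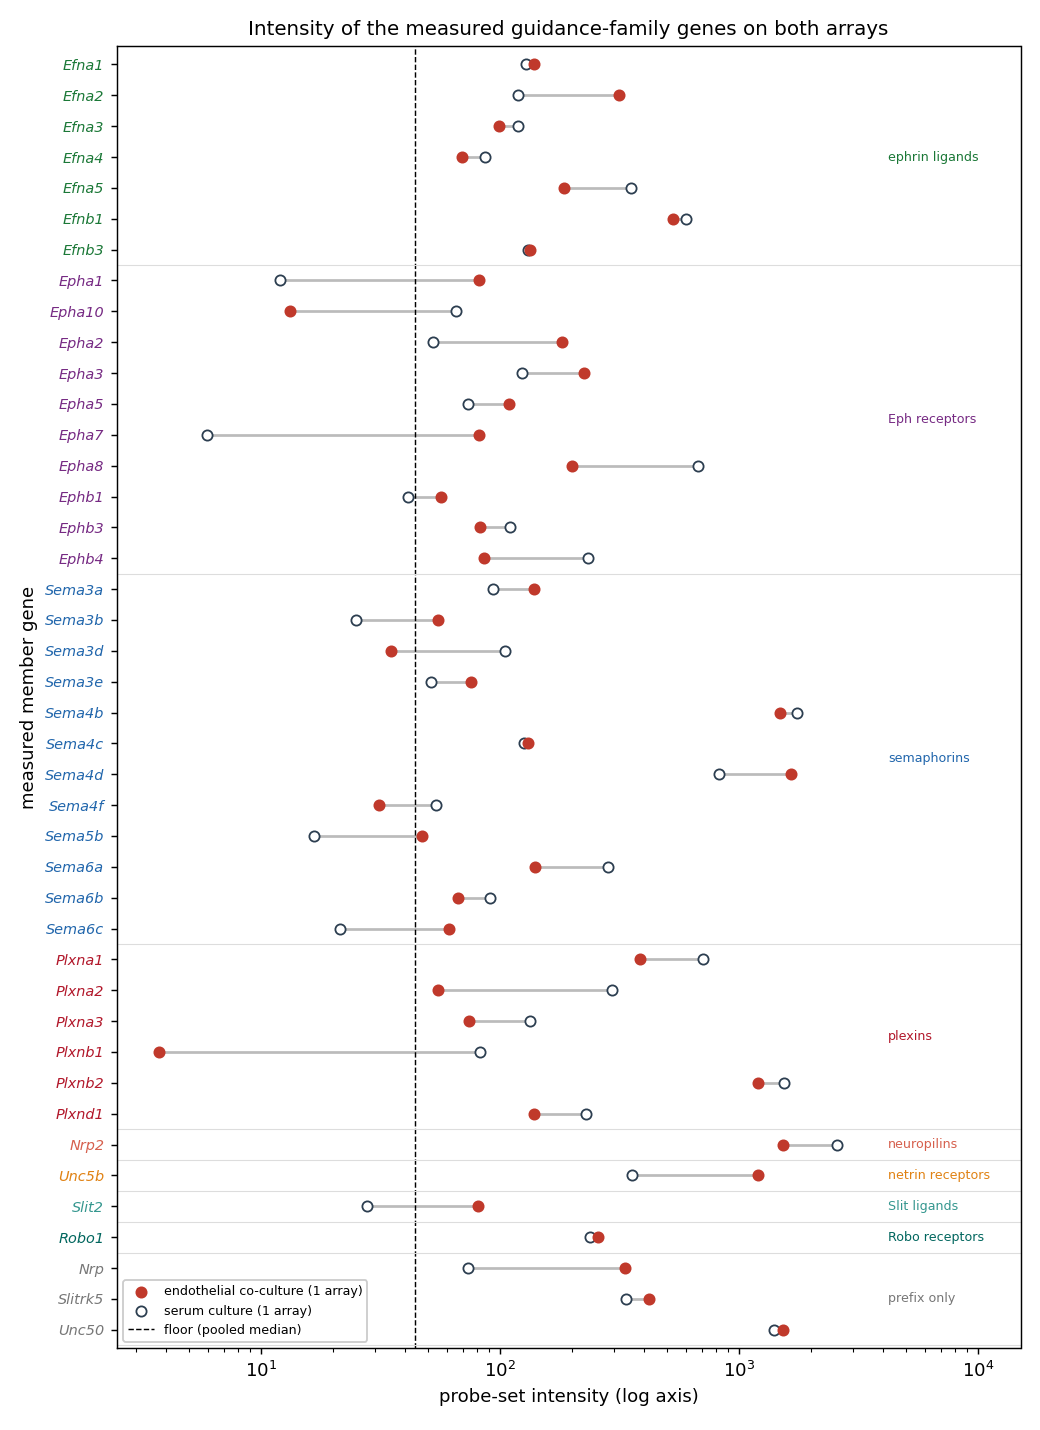
Probe-set intensity (log axis) of the 42 measured members on the endothelial co-culture array (filled points) and the serum array (open points), 1 array each, grouped by class, with the floor of 44.3 as a dashed line. In the rows of the 6 measured plexins every filled point lies left of its open point, while Unc5b, Epha2 and Efna2 lie to the right.

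The promoter windows of the genes with the largest differences past 2-fold among the 67 guidance genes, Epha2 and Unc5b on the higher side and Plxna2 and Epha8 on the lower side, are shown as sequence context. Each window is 300 bases, 250 before and 50 after the start that RefSeq annotates on GRCm38.p6, and is read 5′ to 3′ on the gene's strand. Capitals mark the GC box, GGGCGG or its complement CCGCCC, with overlapping matches each counted, a motif bound by Sp and Klf factors.
Epha2, chr4:141300971-141301270, plus strand: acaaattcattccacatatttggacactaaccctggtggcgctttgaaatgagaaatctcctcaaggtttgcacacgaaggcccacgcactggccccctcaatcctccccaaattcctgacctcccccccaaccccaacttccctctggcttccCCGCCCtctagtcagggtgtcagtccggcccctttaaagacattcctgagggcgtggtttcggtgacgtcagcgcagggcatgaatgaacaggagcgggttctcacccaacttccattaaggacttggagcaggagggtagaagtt
Unc5b, chr10:60831532-60831831, minus strand: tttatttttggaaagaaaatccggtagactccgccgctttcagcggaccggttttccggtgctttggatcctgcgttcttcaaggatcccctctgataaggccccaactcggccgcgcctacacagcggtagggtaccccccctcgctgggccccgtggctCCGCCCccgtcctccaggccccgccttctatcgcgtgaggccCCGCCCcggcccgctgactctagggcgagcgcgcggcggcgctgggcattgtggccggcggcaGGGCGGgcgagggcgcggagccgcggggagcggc
Epha8, chr4:136956767-136957066, minus strand: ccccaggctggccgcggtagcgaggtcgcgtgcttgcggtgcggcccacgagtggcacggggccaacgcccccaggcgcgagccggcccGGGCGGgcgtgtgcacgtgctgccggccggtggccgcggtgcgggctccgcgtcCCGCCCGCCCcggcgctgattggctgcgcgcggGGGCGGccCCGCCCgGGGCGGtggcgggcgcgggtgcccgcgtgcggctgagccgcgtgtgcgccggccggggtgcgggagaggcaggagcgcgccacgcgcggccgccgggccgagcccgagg
Plxna2, chr1:194619579-194619878, plus strand: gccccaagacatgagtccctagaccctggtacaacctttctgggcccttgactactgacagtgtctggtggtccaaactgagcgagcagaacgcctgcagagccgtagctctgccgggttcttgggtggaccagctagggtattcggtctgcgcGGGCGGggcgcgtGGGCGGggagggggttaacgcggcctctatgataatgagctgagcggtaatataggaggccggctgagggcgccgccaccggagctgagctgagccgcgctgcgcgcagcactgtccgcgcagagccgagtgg
The Epha8 window holds 6 GC box matches and is 84.3% G or C, the Unc5b window holds 3 at 69.7%, the Plxna2 window 2 at 64.7% and the Epha2 window 1 at 54.7%. A window was listed for 58 of the guidance genes, and 43 of them (74.1%) hold a GC box, against 35.9% of the windows of all 27025 genes. Those are all genes with a listed window, not limited to the genes of the array, so the sets are unlike. The TATA box TATAAA is in 2 of the 58 (3.45%) and in 14.2% of all windows. The guidance gene windows had a median G and C share of 64.7%, against 52.7% over all genes. A GC box was in the windows of 3 of the 4 higher guidance genes and of 3 of the 4 lower ones with a window. Matches describe these letters only and show no binding.

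Among the ephrins, the contact-bound ligands, 7 of 8 genes were measured, 1 was higher and 0 lower. Efna2, an ephrin held to the membrane by a lipid anchor, had an intensity of 314 in co-culture and 119 in serum, a 2.64-fold difference. Its other measured probe set had 71.6 in co-culture and 3.55 in serum, a log2 difference of 0.69 with serum at the floor. Efna5, of the same A class, ran the other way, with 186 in co-culture and 351 in serum. The transmembrane ephrin Efnb1 had 529 in co-culture and 600 in serum, and its other probe sets gave log2 differences of 0.01 and 0.37. These values of Efnb1 lie within the probe-set SD of each other. Efnb3 hardly differed, at 133 in co-culture and 131 in serum. Efnb2, the arterial ephrin, was below the floor on both arrays by all of its probe sets (21.7 in co-culture and 32.3 in serum by the one used).

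Efna1, Efna3 and Efna4 follow each other without another protein-coding gene between them in the RefSeq annotation of GRCm38.p6. Their log2 differences were 0.11, -0.26 and -0.31, all within the probe-set SD. Efna3 is unsettled, since another probe set had 153 in co-culture and 40.3 in serum, a log2 difference of 1.79 on a bound, against 99.2 and 119 by the probe set used. By the probe sets used, Efna2 was the ephrin past 2-fold, and by its other probe set Efna3 would be past it too.

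Eph receptors, the tyrosine kinases that ephrins bind, had 10 of 13 genes measured, with 1 higher and 2 lower. Epha2, which is known from epithelia and many tumours, had 182 in co-culture and 52.3 in serum, a 3.48-fold difference by its single probe set. Its serum value lay near the floor, and 7 of the 10 alternative settings gave Epha2 a value, past 2-fold in all 7. Epha8, a receptor of the same class described mainly in the nervous system, had 199 in co-culture and 673 in serum, 3.38-fold lower. Ephb4, the venous receptor of ephrin-B2, had 85.9 in co-culture and 234 in serum, 2.73-fold lower. For Epha2, Epha8 and Ephb4 alike the platform holds 1 probe set with a single symbol, so none of them has a second reading. Efnb2, the ligand of Ephb4, and the endothelial markers Pecam1, Cdh5 and Kdr were not measured. Of the measured endothelial markers, Flt1, Ptprb and Ramp2 had log2 differences of -1.07, -0.86 and -0.13, and Eng and Egfl7 had 0.40 and 0.17. Flt1, Ptprb and Eng passed the floor on 1 array alone, which fixed their sign. A relation of Ephb4 to these markers was not tested.

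Of the other EphA receptors, Epha1, Epha3, Epha5 and Epha7 had more signal in co-culture and Epha10 had less. Epha3 had 225 in co-culture and 123 in serum by the probe set used. The other measured ones gave log2 differences of 1.85 and 0.28, the latter with serum below the floor, which fixed its sign. Epha1 had 82.0 in co-culture and 12.0 in serum, and Epha7 had 82.0 in co-culture and 5.95 in serum, each at least 1.85-fold higher because serum lay under it. With percentile 25 as the floor each had a log2 difference of 2.67, but the other measured probe set of Epha1 had 44.9 in co-culture and 23.4 in serum, a log2 difference of 0.02 at the floor used. Epha5 had 109 in co-culture and 73.3 in serum, with other probe sets on either side of 0. Epha10, a receptor that lacks kinase activity, had 13.3 in co-culture and 65.6 in serum. In the EphB class, Ephb1 had 56.8 in co-culture and 41.3 in serum, and Ephb3 had 82.4 in co-culture and 111 in serum. Epha4, Epha6 and Ephb6 were below the floor on both arrays.

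**Figure D2:**
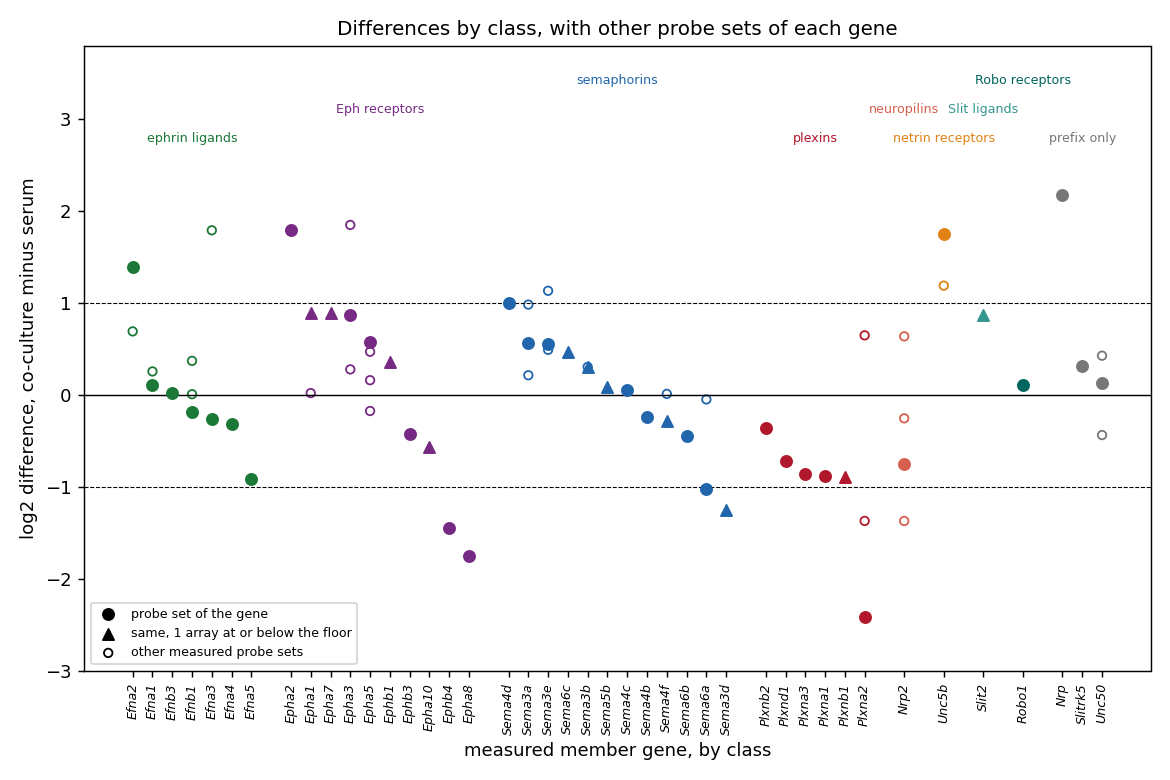
Log2 difference (co-culture minus serum) of each measured member by class. Filled points are the probe set used, triangles mark a value with 1 array at or below the floor, open circles are other measured probe sets of the gene, and dashed lines mark 2-fold. By the probe sets used, the 6 measured plexins lie below 0, and the Eph receptors run from 1.80 for Epha2 to -1.76 for Epha8. Among the open circles, 1 of Plxna2 lies at 0.65 and 1 of Epha3 at 1.85.

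Semaphorins had 12 of 20 genes measured, 1 higher and 2 lower. Sema4d, the transmembrane semaphorin also called CD100, had 1644 in co-culture and 821 in serum, which is 2-fold higher. Its other probe sets were not measured, and its log2 difference was under the limit in 2 of 10 alternative settings, at 0.80 with spike scaling and 0.99 with a pseudocount. Sema4b, of the same class, had 1474 in co-culture and 1740 in serum, a difference within the probe-set SD. Sema4c, a further class 4 member, had 131 in co-culture and 126 in serum. Sema4f had 31.1 in co-culture and 53.9 in serum, and Sema4a and Sema4g were below the floor on both arrays.

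The class 3 semaphorins, secreted ligands that act through neuropilins and plexins, had 4 of 7 members measured. Sema3d had 35.1 in co-culture and 105 in serum, at least 2.37-fold lower, with its other probe set below the floor. Sema3a, the classical growth cone repellent, had 139 in co-culture and 93.9 in serum. Its other probe sets gave log2 differences of 0.22 and 0.98, the latter with serum below the floor. Sema3e, a ligand of plexin-D1, had 75.6 in co-culture and 51.5 in serum, and its other measured probe sets gave 0.49 and 1.13, each with serum below the floor. Sema3a and Sema3e lay on the higher side by every measured probe set, but those with serum below the floor could have no other sign. Their readings above the floor on both arrays were within the probe-set SD. Sema3d, the neighbouring gene of Sema3a in the RefSeq annotation, lay on the lower side, with its sign fixed by the floor as well. Sema3b had 54.9 in co-culture and 24.9 in serum, and Sema3c, Sema3f and Sema3g were below the floor on both arrays.

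Among the class 6 semaphorins, membrane ligands of the A-type plexins, Sema6a had 139 in co-culture and 284 in serum, 2.03-fold lower. Another probe set of Sema6a, near the floor, gave a log2 difference of -0.05, and the gene stayed past 2-fold in 5 of the 9 alternative settings that gave it a value. Sema6b had 67.0 in co-culture and 91.0 in serum, and Sema6c had 61.2 in co-culture and 21.5 in serum. Sema5b, of class 5, had 47.2 in co-culture and 16.6 in serum, just above the floor on 1 array. Sema5a, Sema6d and Sema7a were not measured.

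Of the 9 plexins, the receptors of semaphorins, 6 were measured, and their log2 differences ran from -0.35 to -2.42, with 1 of them past 2-fold. Plxnb1 passed the floor through the serum array alone, which fixed its sign. The 3 plexins under the floor read higher in co-culture, so with percentile 25 as the floor 9 were measured and 6 of them were below 0. Plxna2, a receptor of class 6 semaphorins and, with neuropilins, of class 3, had 55.0 in co-culture and 293 in serum, 5.33-fold lower. A second probe set of Plxna2 had 70.6 in co-culture and 183 in serum (-1.37 on the log2 scale), and another one went the other way, with 77.9 in co-culture and 49.7 in serum (0.65). The size of the Plxna2 difference is therefore unsettled. The mean over its measured probe sets was -1.05 on the log2 scale, and at a floor of 200 the gene had -0.55. Plxna1 had 384 in co-culture and 708 in serum, 1.84-fold lower, and Plxna3 had 74.0 in co-culture and 134 in serum, 1.81-fold lower. Those A-type plexins were each measured by 1 probe set and lay just within the 2-fold limit.

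Plxnb1, the high-affinity receptor of Sema4d, had 3.76 in co-culture and 82.4 in serum, at least 1.86-fold lower. Its other probe set, below the floor on both arrays, read the other way, with 33.2 in co-culture and 25.7 in serum. The size of the difference by the probe set used turns on the floor: it was -0.90 on the log2 scale at the floor used and -2.68 at the lower floor of percentile 25. Plxnb2, also a receptor of class 4 semaphorins, had 1203 in co-culture and 1538 in serum, a log2 difference of -0.35 that lies within the probe-set SD. Plxnd1, the receptor of Sema3e known from endothelial cells, had 139 in co-culture and 229 in serum, 1.65-fold lower. The difference of its ligand Sema3e, 0.55 on the log2 scale, lies within the probe-set SD. Under the floor on both arrays, Plxna4 had 33.8 in co-culture and 29.8 in serum, Plxnb3 had 22.5 in co-culture and 15.2 in serum, and Plxnc1 had 37.1 in co-culture and 18.9 in serum.

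Of the neuropilins, co-receptors for class 3 semaphorins and for VEGF, Nrp2 was measured and Nrp1 was not. Nrp2 had 1520 in co-culture and 2564 in serum, 1.69-fold lower. Its other probe sets gave 250 in co-culture and 646 in serum (-1.37 on the log2 scale), 385 in co-culture and 459 in serum (-0.25), and 69.0 in co-culture and 2.35 in serum (0.64 on a bound). The readings above the floor on both arrays all lay on the lower side. Nrp1 had 35.4 in co-culture and 35.7 in serum, and its other probe sets were below the floor as well. The neural list, in which 5 of 10 genes were measured, 2 of them lower and 0 higher, had a summed intensity of 1382 in co-culture and 2824 in serum, on the same side as Nrp2. Ncam1 carries most of that sum: the other 9 genes summed to 390.2 in co-culture and 584 in serum. The part of these genes in the result was not tested.

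**Figure D3:**
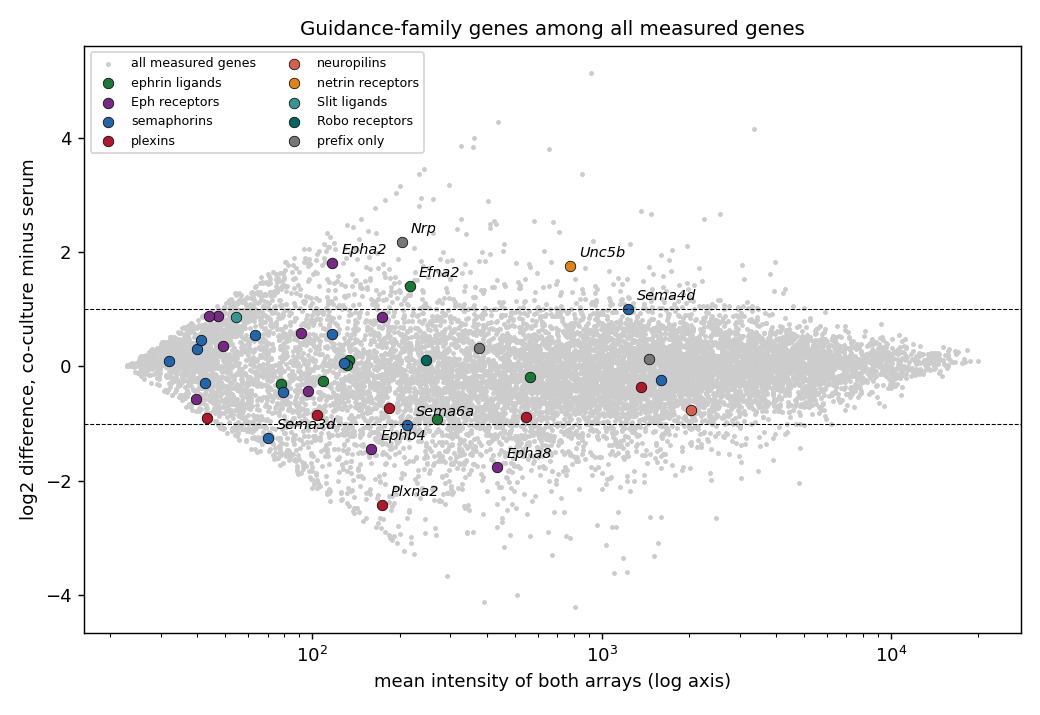
Log2 difference (co-culture minus serum) against the mean intensity of both arrays (log axis), with the 11542 measured genes in grey, members coloured by class, and dashed lines at 2-fold. The 10 members past 2-fold are named, and genes outside these families lie farther from 0 on both sides.

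The netrin system was represented by 1 measured gene of 8. Unc5b, a netrin receptor of vessels and neurons that can also trigger cell death when no ligand is bound, had 1197 in co-culture and 356 in serum, 3.37-fold higher. Its second probe set had 175 in co-culture and 76.7 in serum, also past 2-fold at 1.19 on the log2 scale. Among the 10 members past 2-fold, Unc5b and Plxna2 were the ones with a further probe set past the limit on the same side, and Unc5b stayed past 2-fold in all 10 alternative settings tried. Unc5a, Unc5c and Unc5d were not measured, and neither were the ligands Ntn1 (23.2 in co-culture and 23.5 in serum), Ntn3, Ntn4 and Ntn5.

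Other proteins that share the Unc5 or netrin system were taken from the list of further pathway genes. The netrin receptor Dcc was below the floor (41.2 in co-culture and 33.7 in serum), and neogenin, Neo1, a receptor related to DCC, had 2342 in co-culture and 1953 in serum. Flrt2 and Flrt3, membrane proteins that bind Unc5 receptors, had 636 in co-culture and 1259 in serum, and 129 in co-culture and 133 in serum. Unc5b was thus higher while Neo1 and Flrt3 were within the probe-set SD and Flrt2 lay just within 2-fold on the lower side.

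Slit ligands and Robo receptors had 2 of 7 genes measured, and neither was past 2-fold. Robo1, the main neural and epithelial Slit receptor, had 257 in co-culture and 238 in serum. Slit2, its ligand, had 80.9 in co-culture and 27.7 in serum, at least 1.83-fold higher with serum below the floor. Robo4, the endothelial Robo, had 21.1 in co-culture and 20.4 in serum, and Slit1, Slit3, Robo2 and Robo3 were also below the floor.

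Further genes of these pathways, 70 with a probe set that the prefix rule did not take, had 55 measured, 0 higher and 8 lower in co-culture, beside 4.60% and 10.1% of all genes, with a median log2 difference of -0.06. The lower ones included Tiam1, Farp1, Chn1 and Chn2, regulators of Rac, a GTPase through which guidance receptors move the cytoskeleton. Tiam1, an exchange factor that activates Rac, had 339 in co-culture and 995 in serum, 2.94-fold lower. Farp1, an exchange factor with a FERM domain that has been linked to plexin-A signalling, had 812 in co-culture and 1874 in serum, 2.31-fold lower. The chimaerins Chn1 and Chn2 switch Rac off downstream of Eph receptors and of neuropilin-2. Chn1 had 48.6 in co-culture and 124 in serum, 2.56-fold lower. Chn2 had 110 in co-culture and 505 in serum, 4.60-fold lower, and its other probe set gave a log2 difference of -2.04. Other exchange factors of the list lay within 2-fold on either side, with log2 differences of 0.49 for Vav2, 0.30 for Trio, 0.18 for Vav3, -0.46 for Farp2 and -0.86 for Kalrn.

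Mical2, an actin-oxidising enzyme of a family that includes plexin effectors, had 65.0 in co-culture and 313 in serum, 4.82-fold lower. Its other measured probe set had 3.15 in co-culture and 47.7 in serum, a log2 difference of -0.11 with co-culture at the floor, the mean over both was -1.19, and at a floor of 200 the gene had -0.65. Ssh1, the phosphatase that activates cofilin, had 624 in co-culture and 1839 in serum, 2.95-fold lower, while cofilin itself, Cfl1, differed by 0.07 on the log2 scale. Gipc1, an adaptor that binds the tail of neuropilin-1, had 368 in co-culture and 761 in serum, 2.07-fold lower. The VEGF receptor Flt1 had 26.4 in co-culture and 93.3 in serum, at least 2.11-fold lower. The small GTPases themselves lay within 2-fold, with log2 differences of 0.33 for Rac1, 0.43 for Rhoa and 0.71 for Cdc42. Adam10, the protease that sheds ephrins, had 0.17, and Vegfa, which also binds neuropilins, had 0.22.

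**Figure D4:**
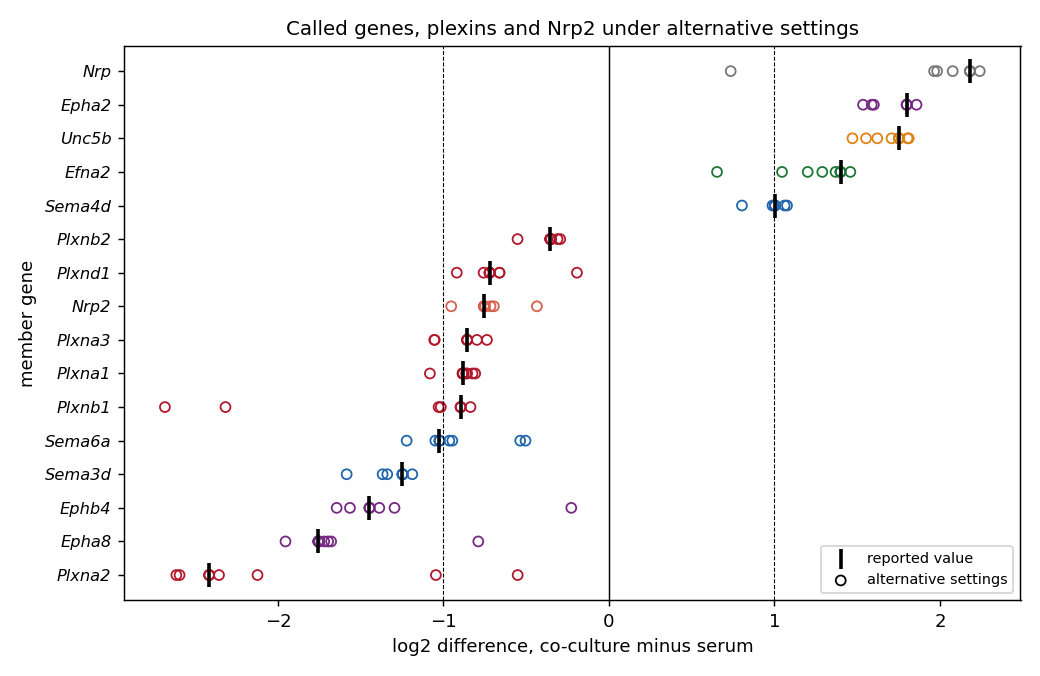
Log2 difference (co-culture minus serum) of the 10 members past 2-fold, the other measured plexins and Nrp2, with the reported value as a black bar and the alternative settings as open circles. Dashed lines mark 2-fold. No gene changes sign under any of the settings shown. The floors, the pseudocount and the median and spike shifts could not turn the sign of these genes. Plxnb1 moves to -2.68, Plxna2 to -0.55 and Ephb4 to -0.23.

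The 10 genes that share only a prefix are Slitrk1 to Slitrk6, Unc50, Unc5cl, Plxna4os1 and Nrp, and 3 of them were measured. Nrp, whose symbol is not that of a neuropilin, had 333 in co-culture and 73.5 in serum, 4.53-fold higher by 1 probe set. Slitrk5, a neuronal membrane protein of synapses, had 418 in co-culture and 336 in serum, and Unc50, a protein of the Golgi membrane, had 1527 in co-culture and 1397 in serum. Slitrk5 and Unc50 lay within the probe-set SD. Without these 10 genes, 4 members were higher and 5 lower.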

How the data were processed

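RNA of 2 samples was copied with a T7 promoter primer, labelled with biotin and put on 1-colour arrays, per the labels' protocols. The deposited table holds the authors' linear intensity for 45101 probe sets per array; their software, background correction and scaling were not given in the sources used here. The means without the outer 2% on either side were 500.003 in co-culture and in serum, and the medians were 50.7 in co-culture and 36.9 in serum, as a common scaling would leave; no label states it. Symbols come from the platform annotation: 34958 probe sets had 1 symbol, 932 several and 9211 none, and 64 control probe sets were left out of the genes. All 77 member symbols were unchanged in the RefSeq annotation of GRCm38.p6.

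Intensities were floored at percentile 50 of all values and put on the log2 scale with Python 3.11.15, numpy 2.4.6 and pandas 2.3.3. With 1 array per group nothing was tested between groups. Every member may be named; those past 2-fold or at 200 or more have both intensities. The members, gene lists and settings were chosen with earlier results of these data known. The steps recovered large known changes planted in bright genes of simulated data. No change was planted near the floor, where many members lie, and the simulated noise was smaller than the probe-set SD. The 10 other settings tried were floors at percentiles 25 and 75 and at 200, a pseudocount of 16, subtraction of the median difference, quantile normalization, scaling to 18 hybridisation spike probe sets, the mean over probe sets, the choice of probe set by mean log2 value, and leaving out probe sets of shared sequence.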

Additional observations from a re-analysis of the deposited data

How the results depend on the processing

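No paired analysis was possible because each group has 1 array. The counts of members past 2-fold turned on the floor. At percentile 25, 16 were higher and 9 lower; at percentile 75, 2 and 0 with a median log2 difference of -0.21; at 200, 2 and 1 with -0.19. The pseudocount gave 8 higher. Spike scaling gave 9 lower and a median of -0.16, and quantile normalization a median of -0.077. Leaving out the prefix-only genes, a setting chosen after seeing the data, gave -0.18. Further pathway genes had 2 higher at percentile 25 and with the pseudocount, 1 higher by the mean over probe sets, and 3, 5 and 13 lower at percentile 75, at 200 and with spike scaling. Over all measured genes the counts were 2053 higher and 1619 lower of 16134 at percentile 25, 143 and 399 of 7220 at percentile 75, 221 and 662 of 8453 at 200, 881 and 1227 of 11542 with the pseudocount, and 357 and 1629 of 11507 with spike scaling, against 531 and 1162 of 11542. The members measured were 69, 10 and 19 at the floors of percentile 25, percentile 75 and 200. Of 432 values of 50 single genes under the settings listed with the methods, 405 moved by less than the probe-set SD, 27 by more, and 0 of the called ones changed sign. Much of this was fixed in advance. Floors and the pseudocount cannot turn the sign of a probe set, and the median and spike shifts are smaller than any called difference. Values above the floor on both arrays also stay the same under several settings. The 6 plexins measured at the floor used stayed below 0 in every setting that measured them, which the floors, pseudocount and shifts could not have changed. At percentile 25 Plxna4, Plxnb3 and Plxnc1 were measured too and lay above 0. Signal near background limits the 35 members that were not measured, whose highest intensity was 39.6.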
